A study of Mus musculus with 18 samples.

Results

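The collagen genes of this series are the genes whose platform symbol is Col, a type number, the letter a and a chain number. They were 41 genes on 91 probes, out of 19057 named genes and 45281 probes on the array, and 32 of them (56 probes) were bright enough to be tested. They were measured in cells sorted for green fluorescence from the ventricles of embryonic mouse hearts. The embryos came from Wt1GFPKI mice, in which GFP marks cells that use the Wt1 gene, and every group carried this allele, so there was no group without it. Cells were freed with enzymes and sorted on GFP, and their RNA went onto 18 Illumina arrays, with 3 arrays on each of the 6 days E11.5 to E16.5, with no treatment. By the labels, groups differed in the day of development. The submitters call the sorted cells cardiomyocytes and mark the population with an M that the labels do not explain. The labels do not say how many embryos went into a sample or whether the samples of a stage came from separate litters, so p-values measure the spread between these samples, which may be technical.

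Collagens are extracellular proteins built from 3 chains wound into a helix, and the classes differ in what they build. Fibrillar collagens form the banded fibres of connective tissue, fibril-associated collagens sit on those fibres, network collagens form the sheets of basement membranes, beaded collagens form microfilaments near cell surfaces, and multiplexins are proteoglycans of the basement membrane zone. In the heart most fibrillar collagen is known to be made by fibroblasts, which descend largely from the epicardium, a layer that expresses Wt1, while basement membrane collagens are made by several cell types including muscle and endothelium.

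The promoters of 5 members are shown: 4 genes from the fibrillar, beaded and multiplexin classes that rose, and Col4a2, whose start region is shared with its partner chain. Col1a1, Col14a1 and Col26a1, which also rose, had no window in the table used. Each window runs from 250 bases before to 50 bases after the RefSeq transcription start in mouse assembly GRCm38.p6. Col1a2 lies at chr6:4505368-4505667 on the plus strand, Col3a1 at chr1:45311288-45311587 on the plus strand, Col6a1 at chr10:76725995-76726294 on the minus strand, Col15a1 at chr4:47207762-47208061 on the plus strand and Col4a2 at chr8:11312555-11312854 on the plus strand. Capitals mark the CCAAT box (CCAAT or ATTGG), the GC box (GGGCGG or CCGCCC) and the TATA box (TATAAA or TTTATA), each searched on both strands. No 2 of these motifs shared a base in the printed windows.

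Col1a2: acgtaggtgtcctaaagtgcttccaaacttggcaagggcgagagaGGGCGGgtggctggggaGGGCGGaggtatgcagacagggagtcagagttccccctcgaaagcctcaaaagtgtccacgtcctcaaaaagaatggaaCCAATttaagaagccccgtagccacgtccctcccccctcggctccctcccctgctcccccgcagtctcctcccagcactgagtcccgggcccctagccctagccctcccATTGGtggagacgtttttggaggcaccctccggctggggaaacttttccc
Col3a1: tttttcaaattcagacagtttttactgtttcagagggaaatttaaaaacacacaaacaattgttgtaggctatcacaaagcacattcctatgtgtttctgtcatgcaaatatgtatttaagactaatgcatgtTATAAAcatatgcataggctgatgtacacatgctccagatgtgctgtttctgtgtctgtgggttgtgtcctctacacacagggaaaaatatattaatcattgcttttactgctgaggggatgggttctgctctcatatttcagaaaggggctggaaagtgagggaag
Col6a1: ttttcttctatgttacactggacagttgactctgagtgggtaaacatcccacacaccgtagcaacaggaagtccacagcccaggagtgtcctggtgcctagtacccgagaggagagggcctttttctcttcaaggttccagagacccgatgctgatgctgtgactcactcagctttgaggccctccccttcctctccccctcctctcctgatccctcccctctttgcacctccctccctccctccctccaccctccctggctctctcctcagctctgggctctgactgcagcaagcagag
Col15a1: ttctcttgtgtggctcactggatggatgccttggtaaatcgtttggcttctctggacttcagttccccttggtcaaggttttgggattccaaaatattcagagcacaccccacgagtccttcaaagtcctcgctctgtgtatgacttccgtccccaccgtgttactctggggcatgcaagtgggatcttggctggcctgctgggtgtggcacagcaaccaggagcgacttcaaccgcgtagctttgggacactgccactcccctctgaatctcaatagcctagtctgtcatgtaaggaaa
Col4a2: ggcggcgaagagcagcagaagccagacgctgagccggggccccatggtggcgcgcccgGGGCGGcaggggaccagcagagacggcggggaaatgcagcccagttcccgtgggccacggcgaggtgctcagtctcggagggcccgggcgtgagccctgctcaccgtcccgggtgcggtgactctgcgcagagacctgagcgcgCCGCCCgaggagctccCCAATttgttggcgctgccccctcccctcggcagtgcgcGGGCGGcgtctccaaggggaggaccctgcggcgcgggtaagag

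The Col1a2 window held 2 CCAAT boxes and 2 GC boxes, the Col3a1 window 1 TATA box, and the Col4a2 window 1 CCAAT box and 3 GC boxes. In the Col6a1 and Col15a1 windows these letters were not found. Col4a1 and Col4a2 lie head to head, and their windows share 78 bases. Windows were at hand for 33 members (36 windows). Of these, 13 held a CCAAT box (36.1%, against 37.4% of all 32851 windows), 23 a GC box (63.9%, against 35.7%) and 5 a TATA box (13.9%, against 13.6%). Among the 14 members that were higher at E16.5, 10 had a window, and of their 11 windows 3 held a CCAAT box, 7 a GC box and 1 a TATA box. A match describes the letters of the window and says nothing of a factor bound there.

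Values are log2 intensities after background correction, on which a difference of 1 is a doubling. A probe counted as above background when its deposited intensity was over 105.42, which is 5.02 on the log2 scale, and it was tested when this held on at least 3 of the 18 arrays. Each gene is represented by its brightest probe, and levels of different genes are not compared because probes differ in brightness. All 18 arrays entered 1 limma model, and adjusted p-values are Benjamini-Hochberg values over 25342 probes, with 0.05 as the threshold. Where no array of a stage was above background, the change is a lower bound on the fold, the brighter stage over the lowest signal of any probe above background. Of the 41 genes 15 were above background on all 18 arrays. Another 5 (Col4a3, Col6a5, Col6a6, Col10a1 and Col19a1) were above it on none, and 4 (Col6a4, Col9a3, Col13a1 and Col22a1) on 1 or 2. The genes Col6a3, Col12a1 and Col20a1 had no probe named for them and were not analysed here, and the same holds for Wt1.

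The arrays carried markers of several cell types. All 11 cardiomyocyte markers were above background on every array of each stage, as were 9 or 10 of the 11 endothelial markers. Of 12 fibroblast markers other than collagens, 9 were above background on all 3 arrays at E11.5 and 11 at E16.5, and Postn, a fibroblast matrix protein, was not above it on any array. Of 10 epicardial markers 6 were above it on all 3 arrays at E11.5 and 3 at E16.5. Fewer cells of a type and less RNA per cell cannot be told apart in these bulk samples. Arrays of 1 stage correlated with a mean r of 0.983 to 0.993. E12.5 replicate 1 was closer to E13.5 replicate 1 than to its own stage, E13.5 replicate 1 was closest to E14.5 replicate 1, and each E16.5 array was closest to the E15.5 array of the same number.

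Between E11.5 and E16.5, 14 of the 32 tested collagen genes rose and 4 fell, leaving 14 that did not pass. Those higher at E16.5 were Col1a1, Col1a2, Col3a1, Col5a1, Col5a2, Col24a1, Col4a2, Col8a2, Col6a1, Col6a2, Col14a1, Col16a1, Col15a1 and Col26a1, and those lower were Col2a1, Col4a6, Col18a1 and Col23a1. Over all 12859 named genes tested, 11.4% were higher and 12.8% lower by the same rule. Rises of at least 1 on the log2 scale were seen in 12 collagen genes and 2.98% of all genes, and falls of that size in 1 collagen gene and 1.66% of all genes. The median log2 change of the tested members was 0.25, against -0.01 over all named genes. In each of the 18 genes the 3 arrays of 1 stage lay entirely above the 3 of the other. The genes were picked by the test on these same arrays, so this adds no support of its own. Without adjustment the p-value of the same moderated test was under 0.05 in 21 members. Unadjusted counts, here and below, have no share over all genes beside them and are not read as an excess. Fold sizes of dim genes depend on how background is removed: with no background correction 9 of the 14 rises and 1 of the 4 falls moved by over 1.5 times, with log2 changes of 0.15 to 2.56 and -2.87 to -0.22. Col15a1 was then 4.46-fold and Col1a1 5.82-fold higher, and Col2a1 7.32-fold lower.

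**Figure D1:**
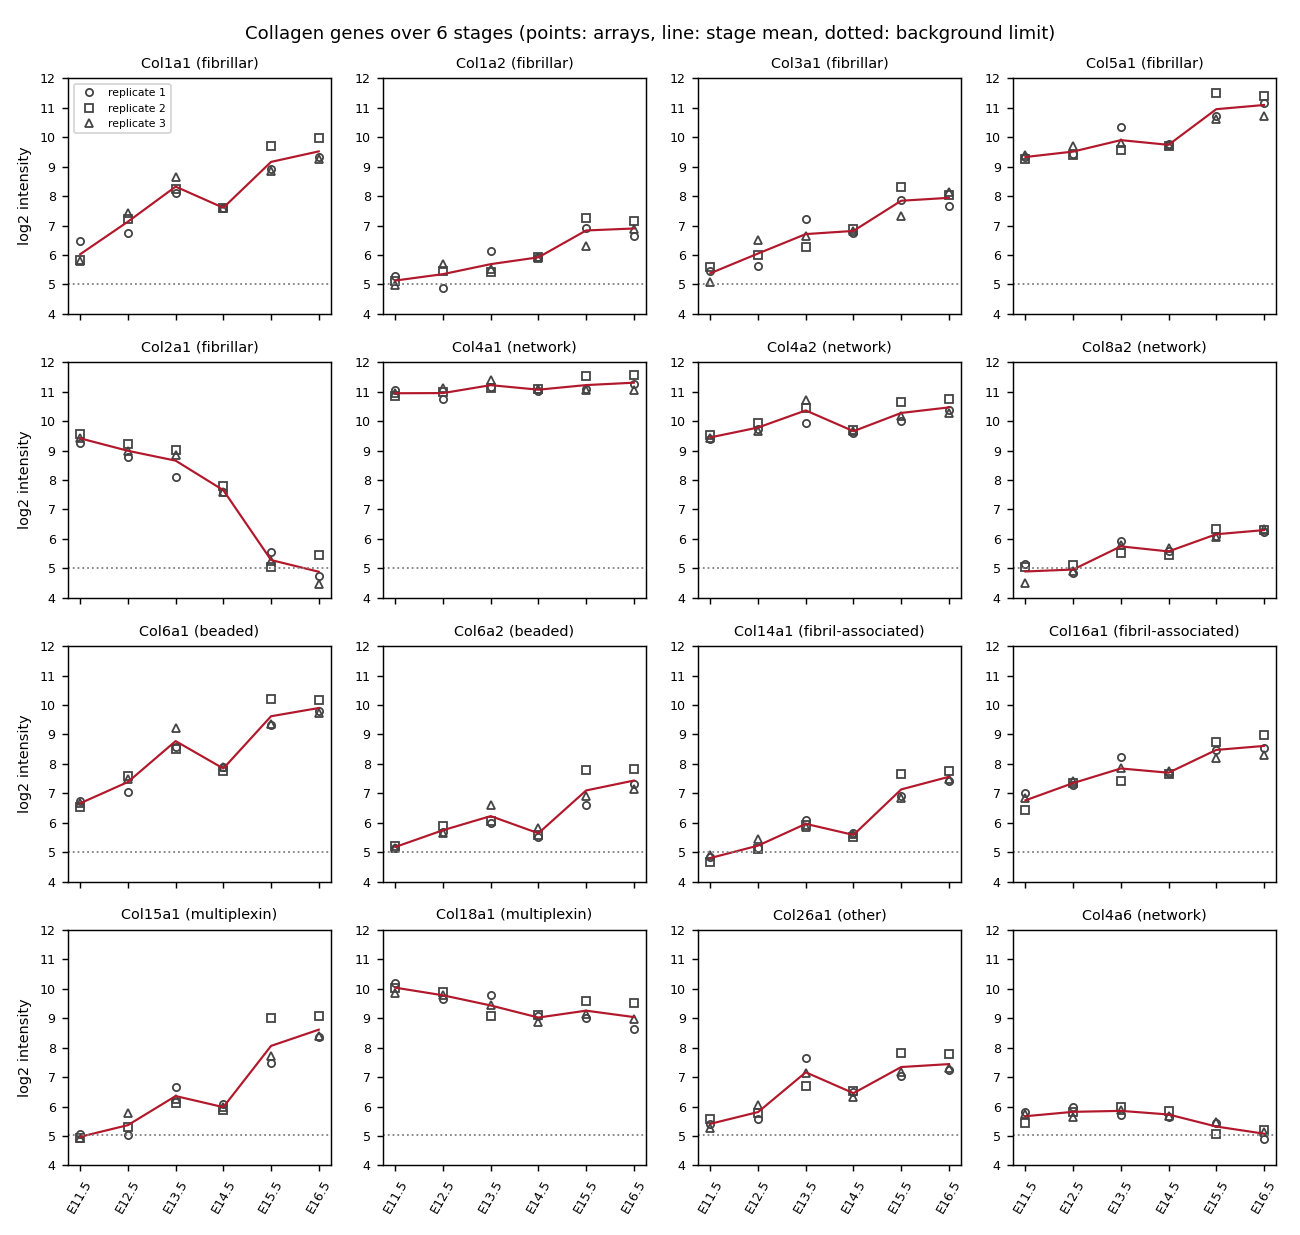
Log2 intensity (vertical axis) of 16 collagen genes at 6 stages (horizontal axis), with 1 marker per array (circle, square and triangle for replicates 1, 2 and 3), a line through the stage means and a dotted line at the background limit of 5.02. Most genes climb from E11.5 to E16.5 with a dip at E14.5, Col2a1 falls from 9.42 to 4.88, and Col4a1 stays near 11 throughout.

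The fibrillar class held the largest number of rises. Of its 11 members, all tested, 6 rose and 1 fell, with a median log2 change of 0.50. Col1a1 encodes the alpha 1 chain of type I collagen, the main fibre of scar and connective tissue. It read 6.47, 5.82 and 5.78 at E11.5, 6.74, 7.22 and 7.44 at E12.5, and 8.10, 8.23 and 8.64 at E13.5. It then read 7.60, 7.60 and 7.61 at E14.5, 8.94, 9.71 and 8.84 at E15.5, and 9.34, 9.97 and 9.25 at E16.5. The arrays from E12.5 on all lay above those of E11.5, and the E14.5 arrays lay below those of E13.5 and E15.5. The rise from 6.03 ± 0.39 to 9.52 ± 0.39 (SD, n = 3) was 11.3-fold (log2 change 3.50, SE 0.23, adjusted p = 1.77e-11).

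Col1a2, the alpha 2 chain of the same trimer, was close to background early. Its arrays read 5.27, 5.12 and 4.99 at E11.5, 4.88, 5.46 and 5.71 at E12.5, and 6.12, 5.41 and 5.53 at E13.5, so E12.5 overlapped both of its neighbours while E11.5 lay below E13.5. Later arrays read 5.95, 5.92 and 5.89 at E14.5, 6.92, 7.27 and 6.31 at E15.5, and 6.66, 7.16 and 6.88 at E16.5, with every array of the last 2 stages above all earlier ones. The change from E11.5 to E16.5 was 1.77 (SE 0.21, adjusted p = 8.76e-07), 3.41-fold. Within arrays, the change of Col1a1 exceeded that of Col1a2 by 1.73.

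Col3a1, the single chain of type III collagen, which is laid down with type I in soft tissue, read 5.46, 5.59 and 5.07 at E11.5 and 7.65, 8.05 and 8.12 at E16.5. Between these stages its means were 6.05 ± 0.44 at E12.5, 6.71 ± 0.47 at E13.5, 6.82 ± 0.07 at E14.5 and 7.84 ± 0.50 at E15.5. Its rise was 5.91-fold (log2 change 2.56, SE 0.23, adjusted p = 9.19e-09), and unlike Col1a1 its mean was not lower at E14.5 than at E13.5. A second probe of Col3a1 rose by 2.78.

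Type V collagen sits at the core of type I fibres and limits their width. Col5a1 read 9.33, 9.27 and 9.39 at E11.5, and the arrays of E14.5 were still at 9.78, 9.71 and 9.73. At E15.5 they were 10.72, 11.51 and 10.64, and at E16.5 11.16, 11.40 and 10.73. Its arrays of the last 2 stages lay above all others, and the change was 1.77 (SE 0.20, adjusted p = 2.76e-07). Col5a2, its partner chain, read 5.36, 5.19 and 5.24 at E11.5 and 5.53, 5.89 and 6.56 at E16.5, a change of 0.73 (SE 0.21, adjusted p = 0.0144). Its adjusted p was 0.0517 without E11.5 replicate 2 and 0.149 without E16.5 replicate 3, while its second probe rose by 0.99 (adjusted p = 1.12e-05). Col24a1, a minor fibrillar chain, was below background on all arrays of E11.5 and gained at least 1.12-fold by E16.5 (log2 change 0.50, SE 0.13, adjusted p = 0.00758). Its second, dimmer probe changed by 0.30 and did not pass (adjusted p = 0.18).

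Col2a1 encodes the fibrillar collagen of cartilage, which is also known from embryonic heart valve primordia, and it was the 1 fibrillar gene that fell. Its arrays read 9.24, 9.56 and 9.44 at E11.5, 8.78, 9.22 and 8.98 at E12.5, and 8.10, 9.01 and 8.85 at E13.5. They went on at 7.58, 7.79 and 7.59 at E14.5, 5.56, 5.04 and 5.24 at E15.5, and 4.74, 5.44 and 4.47 at E16.5, where 1 of 3 was above background. The arrays of E11.5 lay above those of E12.5, E12.5 and E13.5 overlapped, E14.5 lay below them all, and the last 2 stages lay lower again. The fall was 23.2-fold (log2 change -4.53, SE 0.21, adjusted p = 1.07e-13). Its other 2 probes fell by 3.54 and 3.30. On the same arrays, of 10 markers of cartilage and valve mesenchyme 5 were tested. Of these 1 rose and 2 fell, against 11.4% and 12.8% of all named genes, 3 had a change above 0, and the median log2 change was 0.02. Hapln1, a cartilage link protein, was at least 2.10-fold lower (log2 change -1.67), Vcan, the proteoglycan versican, changed by -1.86, and Sox9, a regulator of Col2a1 in cartilage, by 0.96 (adjusted p = 0.0217). Acan, Matn1, Cnmd, Snorc and Cytl1 were too dim to be tested, and the part of such cells in the fall of Col2a1 was not tested. The other fibrillar chains did not pass: Col11a1 changed by 0.01, Col11a2 by 0.31 (adjusted p = 0.134), Col27a1 by -0.07 and Col5a3 by -0.03.

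Among the network collagens 2 of 7 tested members rose and 1 fell, with a median change of 0.08. The chains of type IV collagen form the sheet of all basement membranes. Col4a1 read 11.06, 10.84 and 10.94 at E11.5 and 11.28, 11.57 and 11.07 at E16.5, and its change of 0.36 (SE 0.15) did not pass (adjusted p = 0.0906). Its adjusted p was 0.0348 without E16.5 replicate 3 and 0.00602 with array weights. Col4a2, transcribed in the opposite direction from the shared start region printed above, read 9.39, 9.52 and 9.44 at E11.5, 9.75, 9.94 and 9.66 at E12.5, and 9.92, 10.44 and 10.73 at E13.5. It read 9.60, 9.70 and 9.68 at E14.5, 9.995, 10.66 and 10.18 at E15.5, and 10.37, 10.74 and 10.29 at E16.5. The E14.5 arrays thus lay below those of E13.5 and E15.5. Its rise was 2.03-fold (log2 change 1.02, SE 0.17, adjusted p = 0.000109).

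The X-linked pair Col4a5 and Col4a6 also lies head to head. Col4a5 read 8.86, 8.65 and 8.92 at E11.5 and 8.62, 8.55 and 8.56 at E16.5, a change of -0.23 that did not pass (adjusted p = 0.266). Col4a6 read 5.82, 5.45 and 5.75 at E11.5 and 4.89, 5.20 and 5.15 at E16.5, and fell by 0.59 (SE 0.14, adjusted p = 0.00353). Its other 3 probes changed by -0.30, 0.02 and 0.06, and the mean of its probes did not pass (-0.20, adjusted p = 0.135). Sex-linked genes differed by stage and also between arrays of 1 stage. Eif2s3y, a Y-linked gene, was above background on all 3 arrays of every stage except E14.5, where it was above it on none (4.46 ± 0.15), while Xist, which coats the silenced X, was there at 10.45 ± 0.19 (SD, n = 3). The part of sex in the E14.5 values was not tested.

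Type VIII collagen forms short-chain lattices under endothelium. Col8a2 read 5.13, 5.04 and 4.49 at E11.5, 4.84, 5.12 and 4.91 at E12.5, and 5.93, 5.52 and 5.77 at E13.5. It ended at 6.24, 6.31 and 6.34 at E16.5, above all arrays of the first 4 stages, a 2.65-fold rise (log2 change 1.41, SE 0.15, adjusted p = 1.14e-07). Its partner chain Col8a1 changed by 0.08 (adjusted p = 0.76), with stage means between 6.15 and 6.29. Col4a4 changed by -0.25 and did not pass.

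In the beaded class 2 of 3 tested members rose. Type VI collagen links cells to the surrounding fibres. Col6a1 read 6.75, 6.55 and 6.68 at E11.5, 7.05, 7.60 and 7.501 at E12.5, and 8.58, 8.51 and 9.23 at E13.5. It fell back to 7.88, 7.74 and 7.90 at E14.5, then read 9.32, 10.19 and 9.35 at E15.5 and 9.81, 10.17 and 9.72 at E16.5. None of the first 4 stages overlapped the next, and the last 2 overlapped each other. The rise was 9.44-fold (log2 change 3.24, SE 0.20, adjusted p = 1.05e-11), and its other probes rose by 3.28 and 1.38.

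Col6a2, the neighbouring gene and partner chain, read 5.15, 5.22 and 5.15 at E11.5, 5.70, 5.89 and 5.65 at E12.5, and 5.997, 6.06 and 6.61 at E13.5. It read 5.52, 5.58 and 5.83 at E14.5, 6.60, 7.78 and 6.91 at E15.5, and 7.31, 7.83 and 7.16 at E16.5. The order of its stage means was that of Col6a1 except that E14.5 lay below E12.5, and its rise was 4.78-fold (log2 change 2.26, SE 0.22, adjusted p = 1.9e-08). The dim Col28a1 changed by -0.07.

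Of the fibril-associated class, which had 7 members on the array and 4 tested, 2 rose. Col14a1, the chain of type XIV collagen, which binds fibrils and regulates their assembly, read 4.82, 4.66 and 4.91 at E11.5, none above background. It read 5.13, 5.10 and 5.43 at E12.5, 6.10, 5.91 and 5.87 at E13.5, and 5.63, 5.51 and 5.61 at E14.5. The last arrays were 6.90, 7.66 and 6.83 at E15.5 and 7.43, 7.77 and 7.49 at E16.5, above all before them. By E16.5 it had risen at least 5.83-fold (log2 change 2.76, SE 0.17, adjusted p = 5.45e-12).

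Col16a1, a minor chain found on fibrils and near basement membranes, read 7.0, 6.44 and 6.84 at E11.5 and 8.55, 8.97 and 8.31 at E16.5. Its means in between were 7.35 ± 0.06, 7.84 ± 0.40, 7.70 ± 0.05 and 8.47 ± 0.28 (SD, n = 3), and the rise was 3.60-fold (log2 change 1.85, SE 0.19, adjusted p = 4.15e-08). Col9a2, a chain of the cartilage collagen IX, varied over the 6 stages (F test adjusted p = 0.0028) with its highest mean of 6.13 at E13.5. Its change from E11.5 to E16.5 was -0.31 (adjusted p = 0.0989). Col9a1 changed by -0.11.

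The multiplexins went opposite ways. Col15a1 read 5.06, 4.94 and 4.92 at E11.5, where 1 of 3 arrays was above background, 5.03, 5.30 and 5.77 at E12.5, and 6.68, 6.12 and 6.27 at E13.5. It read 6.08, 5.88 and 5.98 at E14.5, 7.47, 9.01 and 7.71 at E15.5, and 8.36, 9.08 and 8.40 at E16.5. The rise was 12.5-fold (log2 change 3.64, SE 0.27, adjusted p = 1.65e-10), and 6.52-fold with a background offset of 50, where Col1a1 rose 7.72-fold and Col6a1 7.32-fold.

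Col18a1, whose protein releases the fragment endostatin, read 10.21, 10.05 and 9.87 at E11.5, 9.66, 9.89 and 9.80 at E12.5, and 9.79, 9.08 and 9.44 at E13.5. It read 9.07, 9.13 and 8.88 at E14.5, 9.02, 9.60 and 9.16 at E15.5, and 8.63, 9.53 and 8.97 at E16.5. All E11.5 arrays lay above those of the last 3 stages, and the gene ended lower (log2 change -0.999, SE 0.19, adjusted p = 0.000392). Its dimmer probes fell less, by 0.46 and 0.13, and did not pass.

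Outside these classes, Col26a1, which encodes an EMI domain protein with collagen repeats, read 5.40, 5.58 and 5.26 at E11.5, 7.66, 6.70 and 7.14 at E13.5, 6.49, 6.55 and 6.33 at E14.5, and 7.24, 7.79 and 7.30 at E16.5. It rose 4.08-fold (log2 change 2.03, SE 0.21, adjusted p = 5.19e-08), but its second, dimmer probe changed by 0.19 (adjusted p = 0.436). Of the transmembrane collagens Col23a1 was above background at E11.5 only, at 5.52, 5.71 and 5.16, and was at least 1.36-fold lower at E16.5 (log2 change -0.71, SE 0.14, adjusted p = 0.000537). It entered the test only through these 3 arrays, the fewest the filter allows, so its fall is in part set by the filter. Col25a1 changed by 0.20, Col17a1 by -0.08 and Col7a1, the anchoring fibril collagen, by -0.06, and none of them passed.

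**Figure D2:**
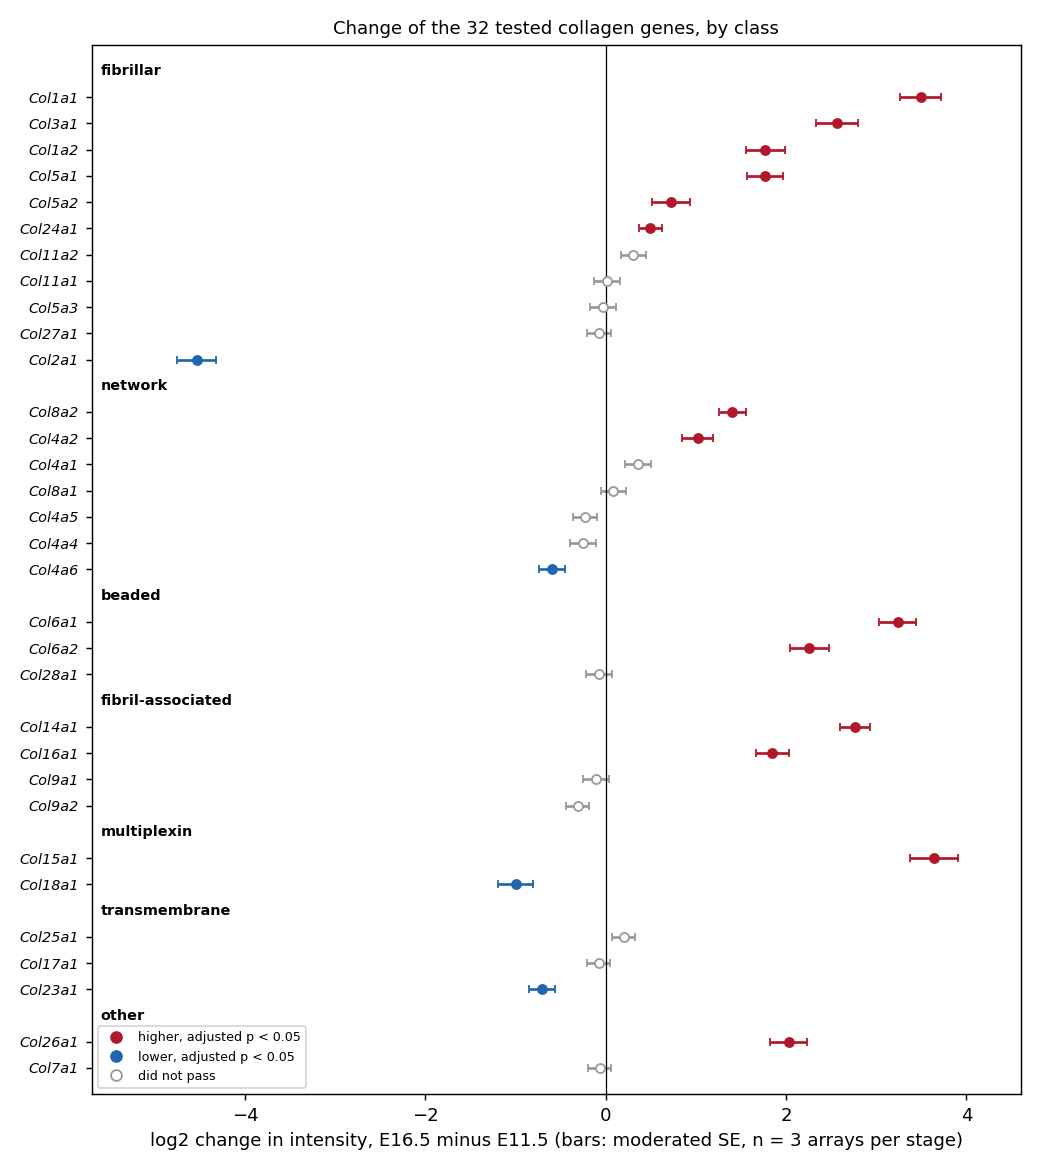
Log2 change in intensity from E11.5 to E16.5 (horizontal axis) for the 32 tested collagen genes, grouped by class, with moderated standard errors as bars (3 arrays per stage). Filled red marks the 14 that rose, filled blue the 4 that fell and open grey the 14 that did not pass. Col15a1 (3.64) and Col1a1 (3.50) lie farthest to the right and Col2a1 (-4.53) farthest to the left.

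Partner chains were compared by their changes, with no pair able to pass the permutation test used here at this size. For 7 pairs the difference of the log2 changes was taken within each array: Col1a1 over Col1a2 1.73, Col5a1 over Col5a2 1.04, Col6a1 over Col6a2 0.98, Col4a5 over Col4a6 0.36, Col4a1 over Col4a2 -0.66, Col8a1 over Col8a2 -1.32 and, as the 2 multiplexins, Col15a1 over Col18a1 4.64. In every pair the within-array differences of the 2 stages did not overlap. Each pair holds a chain that had passed between these stages on the same arrays, so this adds no support of its own. The two-sided exact permutation p was 0.1 in each, the smallest that 3 arrays against 3 can give, and 0.1 after adjustment over the 7 pairs. Sizes of these differences depend on how background is removed. With no background correction Col1a1 changed by 2.54 and Col1a2 by 0.83, Col6a1 by 2.56 and Col6a2 by 1.18, and Col15a1 by 2.16 and Col18a1 by -0.90.

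Several members are neighbours in the RefSeq annotation of GRCm38.p6, with no protein-coding gene between them. Neighbours Col6a1 and Col6a2 both rose, as did Col3a1 and Col5a2, whereas of Col4a1 and Col4a2 1 passed, and of Col4a5 and Col4a6 1. Col18a1, which fell, lies 2 protein-coding genes from Col6a1, which rose.

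Day by day, the changes were concentrated in some steps. From E11.5 to E12.5, Col1a1 rose (1.11, adjusted p = 0.0071) and no other member passed, against 1.04% of all named genes higher and 1.07% lower, and 7 members had an unadjusted p under 0.05. From E12.5 to E13.5, 5 rose and 0 fell, against 1.21% and 1.42% of all named genes: Col6a1 by 1.39, Col26a1 by 1.35, Col1a1 by 1.19, Col8a2 by 0.79 and Col14a1 by 0.74. Col1a1 lost its E12.5 call without E11.5 replicate 2 (adjusted p = 0.0675), E11.5 replicate 3 (0.0619) or E12.5 replicate 3 (0.076), while Col6a1 passed as well without E12.5 replicate 1, E13.5 replicate 3 or E15.5 replicate 2, and Col23a1 fell without E11.5 replicate 3, E16.5 replicate 1 or E16.5 replicate 3. In the E13.5 step Col14a1 lost its call without E12.5 replicate 2 (0.0891) or E13.5 replicate 2 (0.0647), and both Col14a1 and Col1a1 without E13.5 replicate 3 (0.0583 to 0.0597).

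From E13.5 to E14.5 the direction turned. Col2a1 fell by 1.004, Col6a1 by 0.93, Col4a2 by 0.71 and Col9a2 by 0.54, and 0 members rose, against 1.71% of all named genes higher and 2.13% lower. The median log2 change of all 32 tested members was -0.12, against 5.5e-05 over all named genes. Of the 32, 9 had a higher mean at E14.5 than at E13.5. Of the 14 picked as higher at E16.5 than at E11.5, 11 had a lower mean at E14.5 than at E13.5. The step rests on few arrays: of the 4 falls, only that of Col6a1 passed without E13.5 replicate 2 (Col26a1 then passed as well, at -0.94) or without E14.5 replicate 1, only that of Col2a1 without E14.5 replicate 2, and 0 without E13.5 replicate 3 or E14.5 replicate 3, with lost adjusted p-values of 0.0502 to 0.219. Without E15.5 replicate 2, which shares in the estimate of the spread, 6 fell, with Col1a1 and Col26a1 added.

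The step from E14.5 to E15.5 held the largest number of calls. Here 11 members rose and 1 fell, against 2.54% and 1.7% of all named genes. Col15a1 rose by 2.08 (adjusted p = 2.77e-05), Col6a1 by 1.78 (6.25e-06), Col1a1 by 1.56 (0.000143), Col14a1 by 1.55 (2.75e-06), Col6a2 by 1.45 (0.000179) and Col5a1 by 1.21 (0.000541). Col3a1, Col1a2, Col26a1, Col16a1 and Col8a2 rose by between 0.58 and 1.03, and Col2a1 fell by 2.37 (adjusted p = 5.1e-07). The median log2 change of all 32 tested members was 0.15, against 0.00057 over all named genes. Of the 32, 23 had a higher mean at E15.5 than at E14.5. Among these were all 14 picked as higher at E16.5, a choice that favours such a count. The number of rises was 7 without E14.5 replicate 1, 8 without E14.5 replicate 2, 6 without E14.5 replicate 3, 6 without E15.5 replicate 2 and 10 without E15.5 replicate 3, with lost adjusted p-values of 0.0504 to 0.188. E15.5 replicate 2 was the highest of its stage in all 14 genes.

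Between E15.5 and E16.5, by limma's moderated test, 0 members passed in either direction, and 2 had an unadjusted p under 0.05. The share of all named genes called was 0% higher and 0% lower. Among the 14 genes chosen as higher at E16.5 than at E11.5, E16.5 replicate 2 was the highest array of its stage in 10. Over all stages the F test called 19 members, against 28.9% of all named genes: the 18 that passed between E11.5 and E16.5, and Col9a2.

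**Figure D3:**
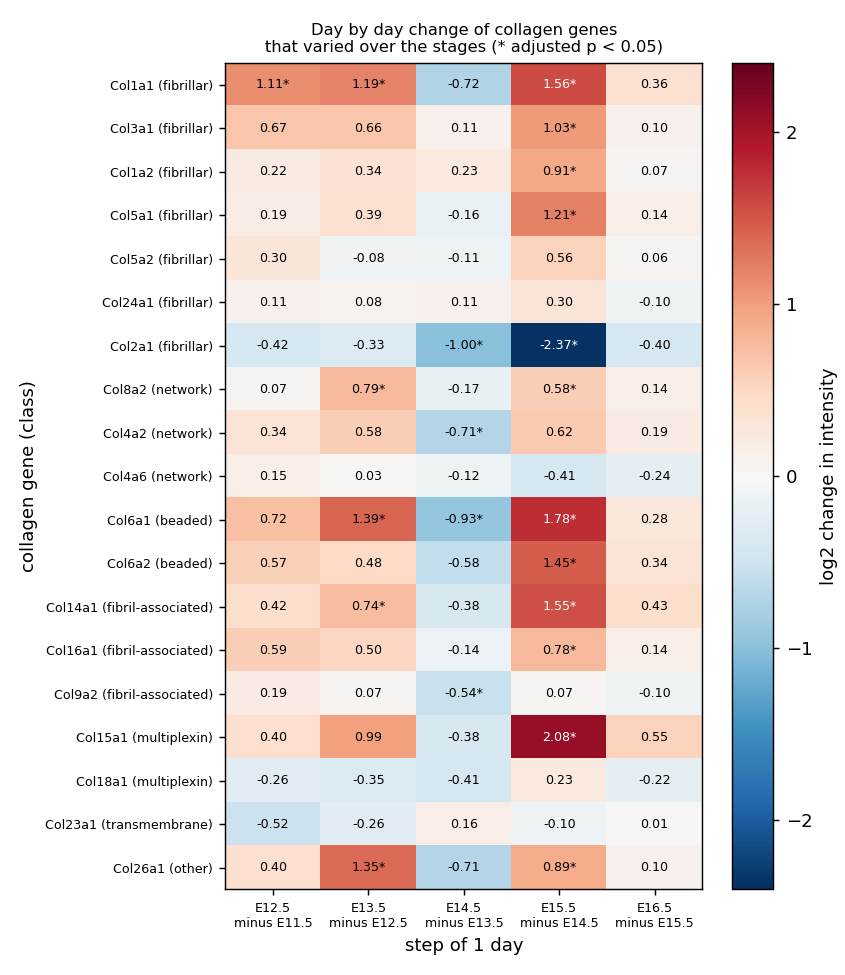
Log2 change of the 19 collagen genes that varied over the stages (rows, by class) in each step of 1 day (columns), coloured from blue (lower) to red (higher), with an asterisk where the adjusted p was under 0.05. The E15.5 column holds 12 asterisks, the E14.5 column 4, all lower, and the E16.5 column 0.

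Cell type markers moved on the same arrays. Beside the counts of markers higher or lower at E16.5, here and in the next paragraph, stand 11.4% higher and 12.8% lower over all named genes. Relative to E11.5, the mean log2 level of all 32 tested collagens was 0.17, 0.45, 0.24, 0.63 and 0.69 higher on the successive days from E12.5 to E16.5. For the 14 that rose, which were picked for being higher at E16.5, it was 0.43, 1.11, 0.78, 1.87 and 2.07. The 11 tested fibroblast markers without collagens stood at 0.61, 1.06, 0.79, 1.52 and 1.82 on those days. From E11.5 to E16.5, 9 of them rose and 1 fell, with changes from -0.93 to 4.54. Dcn, the fibril-binding proteoglycan decorin, rose by 4.54 and Tcf21, a fibroblast transcription factor, by 2.14. Like the collagens, the fibroblast list had a lower mean at E14.5 than at E13.5 and E15.5. The same held for the endothelial list and for the smooth muscle and pericyte list.

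The 11 endothelial markers were at 0.20, 0.47, -0.11, 0.83 and 1.13 on the same days, with 8 higher at E16.5, among them Cldn5 (3.42) and Pecam1 (1.10). Smooth muscle and pericyte markers (8 tested, 4 higher and 1 lower) reached 0.54 at E16.5. Members of this list disagreed, with log2 changes between -2.04 and 2.80 from E11.5 to E16.5. Only 5 of the 8 were above 0, and their middle value (the list median) was 0.29 over all 8. Among those higher, the pericyte gene Rgs5 was at least 5.58-fold higher. Epicardial markers (9 tested, 1 higher and 6 lower) were at -0.63 at E16.5, and Krt8, a keratin of the epicardial sheet, fell by 1.55. Cardiomyocyte markers (11 tested, 3 higher and 1 lower) stayed between -0.11 and 0.06. Erythroid markers (7 tested, 5 higher and 2 lower) had a mean of 3.13 at E14.5 and 2.51 at E16.5, with a median change of 1.06 from E11.5 to E16.5, and macrophage markers (4 tested, 3 lower) were at -1.02. The part of these cell types in the collagen changes was not tested.

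**Figure D4:**
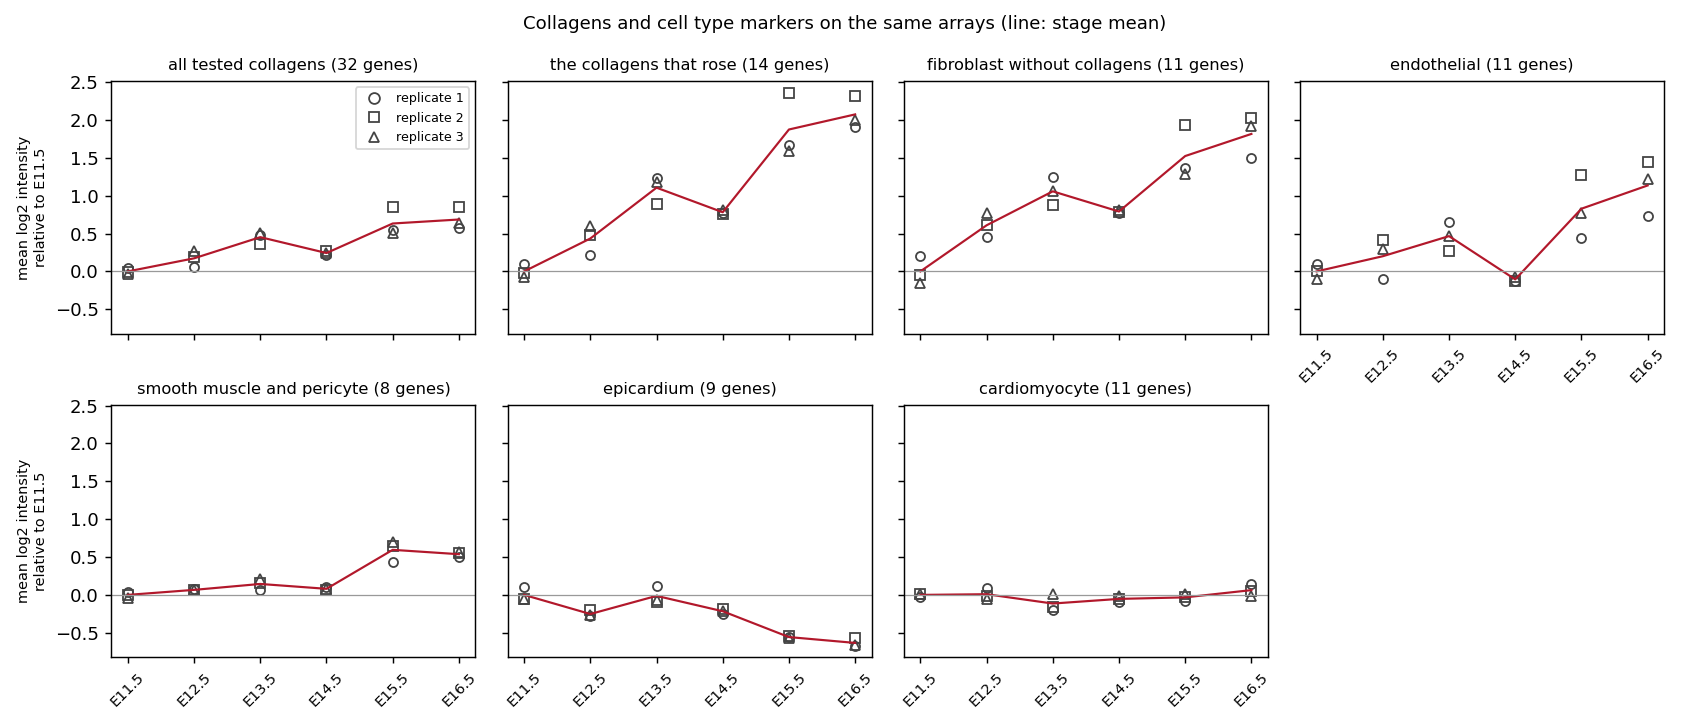
Mean log2 intensity relative to the E11.5 mean (vertical axis) at 6 stages (horizontal axis), with 1 marker per array and a line through the stage means. Panels show the 32 tested collagen genes, the 14 picked because they rose, and 5 lists of cell type markers. The lists were chosen with earlier results of these data known. The erythroid, macrophage and cartilage lists are not drawn. At E16.5 all tested collagens stand 0.69 above their E11.5 mean, the 14 that rose 2.07 and the fibroblast list 1.82, while the cardiomyocyte list stays between -0.11 and 0.06.

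Genes that modify, process, cross-link and bind collagen were tested in the same fit, where 11.4% of all named genes were higher and 12.8% lower. Of the 14 tested genes of prolyl and lysyl modification, 1 rose and 2 fell, shares near those of all genes, with a median log2 change of -0.10. P3h3, a prolyl 3-hydroxylase family member, rose by 1.24 (SE 0.16, adjusted p = 2.6e-06), while P3h2 fell by 1.04 (adjusted p = 3.87e-06) and P3h4 by 0.71 (adjusted p = 0.000769). Among 5 folding and export genes, Fkbp14, a folding enzyme of the endoplasmic reticulum, rose by 0.74 (adjusted p = 0.0149) and Tmem38b, an ion channel of that organelle, fell by 0.59 (adjusted p = 0.00177). The rise of Fkbp14 did not pass without E11.5 replicate 1 (adjusted p = 0.0564), E11.5 replicate 2 (0.0523) or E16.5 replicate 3 (0.151). Serpinh1, the collagen chaperone, changed by -0.18 (adjusted p = 0.376).

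Both tested genes of procollagen processing rose, Bmp1, which cuts off the C-terminal propeptide, by 1.002 (adjusted p = 0.00109) and Pcolce, which enhances that cut, by 0.60 (adjusted p = 0.00315). Of 5 tested cross-linking genes Lox, the lysyl oxidase, rose by 2.31 (SE 0.23, adjusted p = 4.48e-08), whereas Loxl1 changed by 0.03, Loxl4 by -0.16, Tgm2 by -0.32 and Pxdn by -0.14 without passing.

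Of 9 tested receptors and uptake genes 2 rose and 2 fell. Itga11, an integrin subunit that binds fibrillar collagen, was at least 1.97-fold lower at E16.5 (log2 change -1.23, adjusted p = 6.37e-06), and Ddr2, a receptor kinase for fibrillar collagen, was at least 1.30-fold higher (log2 change 0.57, adjusted p = 0.00954). Itga1 rose by 0.50 (adjusted p = 0.0257) and Gp6, known as the collagen receptor of platelets, was at least 1.12-fold lower (log2 change -0.42, adjusted p = 0.0138). The call of Itga1 was lost without E11.5 replicate 1 (0.15), E11.5 replicate 2 (0.114) or E16.5 replicate 2 (0.11), and that of Gp6 without E16.5 replicate 1 (0.105).

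**Figure D5:**
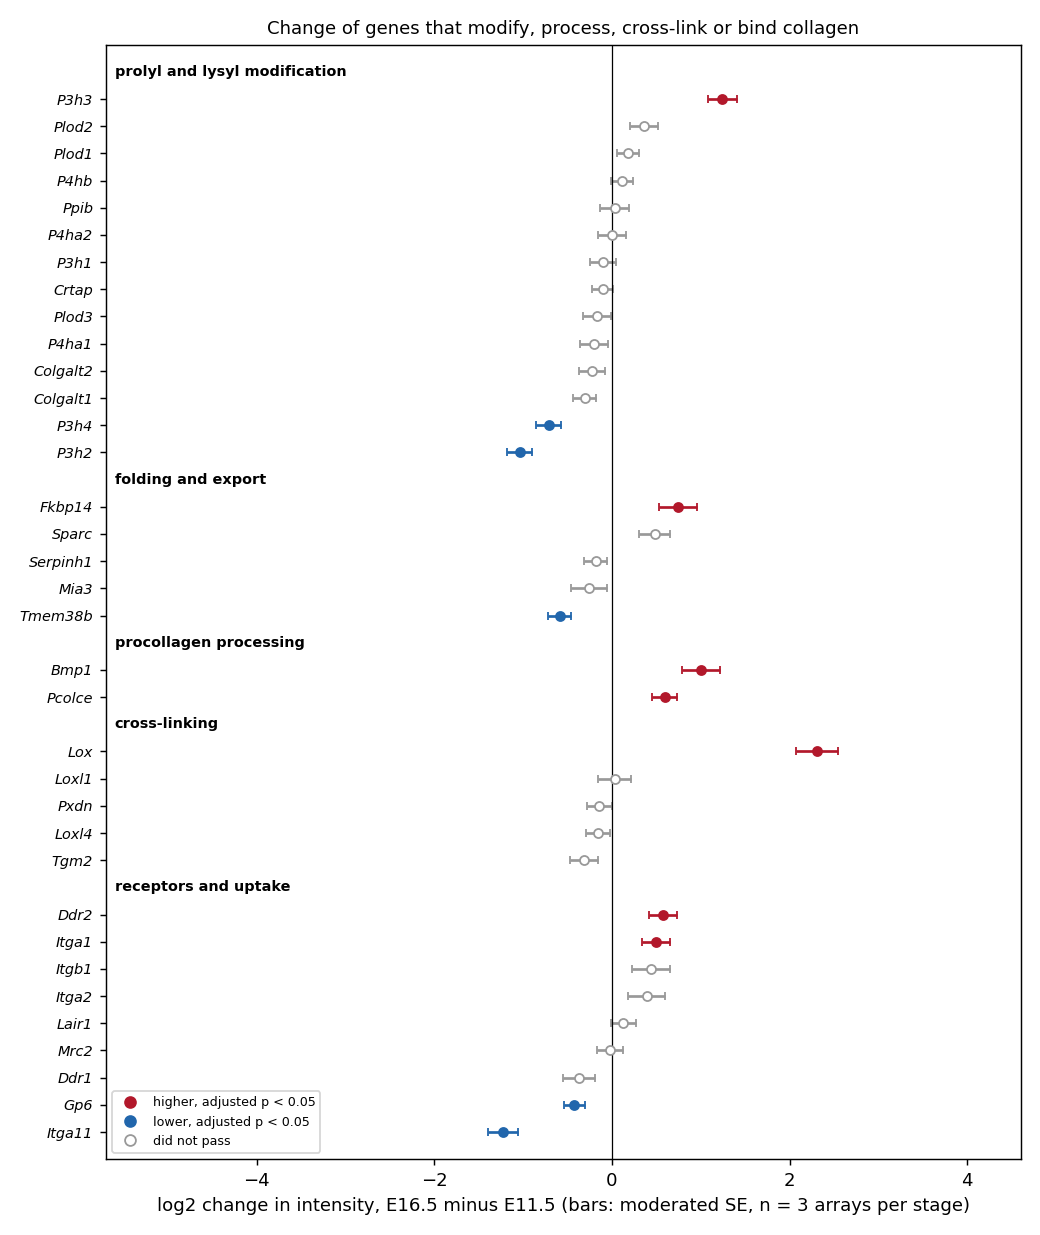
Log2 change in intensity from E11.5 to E16.5 (horizontal axis) for the tested genes of 5 collagen pathway lists, with moderated standard errors as bars (3 arrays per stage). Filled red marks genes that rose, filled blue genes that fell and open grey those that did not pass, and Lox (2.31) lies farthest to the right.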

How the data were processed

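The deposited table of normalized values gives a linear intensity per probe on 18 arrays. The intensities had been quantile-normalized by the authors, as the columns show: their sorted values differed by at most 0.0873%. Per the submitters' processing notes, GenomeStudio 2011.1 was used, with no step described. The deposited raw table holds 36 columns, 18 with intensities and 18 with a detection p-value, whose names match no sample, and it was not used. The deposited intensities ran from 83.8 to 17358 with a mode of 99.0 and showed no background subtraction. Depth does not apply to arrays, and 3 arrays per stage limit the precision.

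Here background was corrected with normexp (offset 16) and values were put on log2 with limma 3.58.1 in R 4.3.3. The background limit of 105.42 is the one-sided 0.05 point of a normal background with the mode as its mean and the spread below the mode as its SD. Of 45281 probes 25342 (56.0%) were tested, in 1 fit with a coefficient per stage and 12 residual degrees of freedom. The platform annotation gave 1 symbol to 34885 probes, several to 18 and none to 10378, and 34807 matched RefSeq. The fit was tested on simulated data. All members were named, per-array values went to members changed by at least 1, to the largest change of each class and to partner chains, and the pathway lists gave up to 5 genes that passed each. The members and lists were chosen with earlier results of these data known.

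Alternatives were no background correction, offset 50, other filters on dim probes, repeated quantile normalization, the mean of a gene's probes, array weights, an intensity trend in the prior variance, only the 2 stages compared, a replicate block and leaving out each array. Replicate numbers are taken from the labels. Same-numbered arrays deviated together most for E15.5 and E16.5 (r of 0.283, 0.190 and 0.333), where the block changed no call. In the other comparisons r was lower, from -0.042 to 0.168, for example 0.168, 0.146 and 0.088 for E14.5 and E15.5.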

Additional observations from a re-analysis of the deposited data

How the results depend on the processing

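Between E11.5 and E16.5 the counts of rises (14) and falls (4) were 13 to 14 and 4 to 4 when each array was left out, and 13 to 15 and 3 to 5 under the other 11 alternatives. The F test count (19) lay between 18 and 21 throughout. Steps of 1 day varied more. The E12.5 rises (1) were 0 with no background correction, 0 with offset 50, 2 with array weights and 3 with only the arrays of the 2 stages, and 0 to 2 over left-out arrays. The E12.5 falls (0) were 1, Col23a1, with the stricter filter, with probes averaged per gene and with array weights, and 0 to 1 over left-out arrays. Over left-out arrays the E13.5 rises (5) were 3 to 6, the E14.5 falls (4) 0 to 6 and the E15.5 rises (11) 6 to 12. The E15.5 falls (1) were 2 with array weights. No change that had passed, in any of these comparisons, turned its sign, while members near 0 that did not pass could, such as Col11a1 (-0.05 to 0.10) and Col27a1 (-0.21 to 0.06) between E11.5 and E16.5. The cause of these shifts was not tested.

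The labels give same-numbered samples only a shared replicate number, and outside E15.5 and E16.5 their arrays deviated together less. With the replicate block and the arrays of the 2 stages alone, the E12.5 rises were 0, the E13.5 rises 3 and the E14.5 falls 7. With the replicate block on all arrays the E12.5 falls were 1, and the counts of rises and falls between E11.5 and E16.5 were 14 and 4.

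Signal over background limits the dim members: 9 genes could not be tested, and fold sizes of genes near 5.02 on the log2 scale are compressed or set by the offset.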

Other observations

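Members with several tested probes (18 genes) differed in how well those probes tracked one another. Over the 18 arrays, which share the same RNA and normalization, the other probes of Col2a1 correlated with the brightest one at r = 0.99 and 0.98, and the second probe of Col14a1 at 0.98. The second probe of Col26a1 correlated at 0.38, and the dimmest probe of Col4a6 at -0.14.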
